A study of Homo sapiens with 8 samples.

Results

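The comparison described here is palbociclib alone against its solvent, DMSO, in A2780, an established cell line from a human ovarian carcinoma. Palbociclib is a small-molecule inhibitor of CDK4 and CDK6. RNA with a polyA tail was sequenced after 24 hours of treatment, and each group had 2 libraries. Genes whose FPKM averaged 1 or more over the 8 libraries of the series were kept, which left 12443 of the 31721 genes in the table, and 4 of the 8 libraries belong to the comparison. FPKM is the number of fragments on a gene scaled to its exon length and to a factor for the library, so levels can be set side by side between genes. Here the library scaling was within 0.0034% of size factors, the median over genes of a library's ratio to the geometric mean of all libraries. The other 4 libraries had the PARP inhibitor olaparib alone or olaparib with palbociclib, also for 24 hours. No dose, and no second cell line or clone, is given in the sources used here. The labels call the 2 libraries of a group biological repeats but do not tie them to separate cultures, so p-values measure the spread between these libraries, which may be technical. In bulk RNA, fewer cells in a phase of the cycle and less RNA per cell cannot be told apart.

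Cyclin D with CDK4 or CDK6 phosphorylates the pocket proteins RB1, RBL1 and RBL2 in G1. Unphosphorylated RB1 holds the E2F factors that drive S phase genes, and RBL1 or RBL2 with E2F4 and the MuvB core forms the DREAM complex, which represses S phase and mitotic genes in resting cells. Later in the cycle MuvB joins MYBL2 and FOXM1 and activates mitotic genes, many of which carry a cell cycle homology region (CHR) and CCAAT boxes, the sites of NF-Y, close to their start. Inhibition of CDK4 and CDK6 arrests cells that have RB1 in G1.

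The promoters of 8 genes that fell are shown here because they belong to the replication and mitosis groups that the results turn on. The sequences are from RefSeq (GRCh38.p14) and run 5′ to 3′ on the strand of the gene, from 170 bases before to 20 bases after its RefSeq start. Capitals mark matches, on either strand, to the E2F form TTCCCGC or its variant TTGGCGC, its variant TTCGCGC or its variant TTGCCGC, to the CHR form TTTGAA and to the NF-Y form CCAAT. For each of 3 gene groups, the 2 lowest members with a promoter in the RefSeq table were taken. GINS2 and GMNN, a subunit of the replicative helicase and the licensing inhibitor geminin, came from the replication group. AURKB and PLK1 are mitotic kinases, and PTTG1 (securin) and KIF20A (a kinesin of cytokinesis) came from the anaphase group. PRIM1, the catalytic subunit of DNA primase, and CDCA3, a mitotic entry factor, were added after the motif counts were seen, as the next members that held an E2F form or both CHR and CCAAT.
GINS2, chr16:85688935-85689124, minus strand: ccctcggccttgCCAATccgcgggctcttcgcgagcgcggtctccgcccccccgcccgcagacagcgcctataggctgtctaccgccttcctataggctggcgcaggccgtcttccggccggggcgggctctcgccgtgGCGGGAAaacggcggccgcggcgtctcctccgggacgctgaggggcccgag
GMNN, chr6:24774767-24774956, plus strand: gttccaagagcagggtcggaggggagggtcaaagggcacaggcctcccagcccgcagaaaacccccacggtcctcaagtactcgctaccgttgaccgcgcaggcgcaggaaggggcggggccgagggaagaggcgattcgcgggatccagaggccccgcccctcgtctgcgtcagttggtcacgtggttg
PRIM1, chr12:56752304-56752493, minus strand: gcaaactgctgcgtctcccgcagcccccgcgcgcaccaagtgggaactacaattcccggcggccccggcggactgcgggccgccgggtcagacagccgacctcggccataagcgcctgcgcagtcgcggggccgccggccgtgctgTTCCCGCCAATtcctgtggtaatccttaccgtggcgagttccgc
AURKB, chr17:8210206-8210395, minus strand: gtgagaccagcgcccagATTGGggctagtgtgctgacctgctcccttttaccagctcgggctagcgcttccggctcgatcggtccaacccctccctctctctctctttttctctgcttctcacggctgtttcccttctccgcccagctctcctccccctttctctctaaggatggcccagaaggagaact
PLK1, chr16:23678719-23678908, plus strand: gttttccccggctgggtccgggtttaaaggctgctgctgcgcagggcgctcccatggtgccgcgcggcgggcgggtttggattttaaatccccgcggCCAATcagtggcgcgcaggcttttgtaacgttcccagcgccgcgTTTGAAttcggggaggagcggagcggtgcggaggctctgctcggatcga
PTTG1, chr5:160421685-160421874, plus strand: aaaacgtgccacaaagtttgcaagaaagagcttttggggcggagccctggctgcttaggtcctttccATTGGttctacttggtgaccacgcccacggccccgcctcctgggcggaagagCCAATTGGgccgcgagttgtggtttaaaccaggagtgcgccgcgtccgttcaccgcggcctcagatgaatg
KIF20A, chr5:138178942-138179131, plus strand: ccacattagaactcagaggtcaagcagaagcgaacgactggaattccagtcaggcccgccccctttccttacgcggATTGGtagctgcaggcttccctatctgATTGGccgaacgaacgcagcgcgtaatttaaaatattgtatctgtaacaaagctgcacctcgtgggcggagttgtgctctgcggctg
CDCA3, chr12:6851267-6851456, minus strand: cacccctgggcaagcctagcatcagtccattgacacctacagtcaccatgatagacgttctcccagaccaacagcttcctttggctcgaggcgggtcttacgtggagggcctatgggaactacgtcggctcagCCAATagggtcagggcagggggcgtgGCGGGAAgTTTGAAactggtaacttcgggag
GINS2 and PRIM1 held 1 E2F form and 1 CCAAT each, and in PRIM1 these matches overlap. PLK1 held CHR and CCAAT, and CDCA3 held an E2F form, CHR and CCAAT. PTTG1 held 3 matches to CCAAT, a pair of which overlap on opposite strands, and KIF20A held 2. In these windows AURKB held 1 CCAAT and GMNN held no match, and other starts of the genes were not searched. A match describes these letters only and is not a measured binding site.

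The label of the cells was checked against marker genes. None of 9 epithelial markers in the table reached 1 FPKM in a DMSO or palbociclib library, with EPCAM the highest at 0.772 FPKM and CDH1 (E-cadherin) at most 0.00548 FPKM, and none of 6 ovarian carcinoma markers did, with FOLR1 the highest at 0.795 FPKM and PAX8 at 0 in 3 of the 4 libraries. Of 6 fibroblast markers, 4 reached 1 FPKM, among them LUM at 44.4 to 49.1 FPKM and DCN at 6.35 to 7.24 FPKM. The level of THY1, one of these, was 3.44 and 3.63 FPKM with DMSO and 4.77 and 4.78 FPKM with palbociclib and passed the test as higher. The 4 endothelial and 4 leukocyte markers reached at most 0.197 and 0.465 FPKM. Reads recovered from the FPKM values numbered 34056976 and 31183359 in the DMSO libraries and 21494059 and 30776926 in the palbociclib libraries. Chi-square divided by its degrees of freedom was 2.37 between the DMSO and 2.76 between the palbociclib libraries, more than counting noise gives.

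With palbociclib, 6228 genes (50.1% of those tested) differed from DMSO, 2324 higher (18.7%) and 3904 lower (31.4%). A gene counts as higher or lower when its adjusted p in limma, a linear model fitted across all genes with Benjamini-Hochberg adjustment, was under the threshold of 0.05. Most changes were small. The median log2 fold change was 0.36 among the genes that rose and −0.32 among those that fell, 483 and 430 genes passed 1.5-fold, and 91 and 29 passed 2-fold. Only 3 genes passed 4-fold and all rose: the transcription factor gene EGR1, the nuclear noncoding RNA gene MALAT1, and a 7SK-family RNA gene listed as RF00100. Fold changes are differences of log2(FPKM + 1), which are too small for genes near the pseudocount of 1, and their errors are standard errors from the fit. The libraries of the 2 groups did not overlap for 9804 genes (78.8%), so groups that lie apart are common here. The split between higher and lower depended on scaling: genes that rose were 37.3% of the calls on the deposited FPKM values, 46.5% after quantile normalisation and 56.1% after each library was rescaled to the same FPKM total (TPM). Scaling by size factors, as in the deposited values, does not fix the FPKM total. The deposited totals were 275941 and 274426 in the palbociclib libraries and 295656 and 295620 in the DMSO libraries, and TPM scaling moved the median log2 fold change of all genes by 0.09. Of the genes that fell, 2922 kept the call with quantile normalisation and 2691 with TPM scaling, and of those that rose, 2063 and 2321 kept it.

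**Figure D1:**
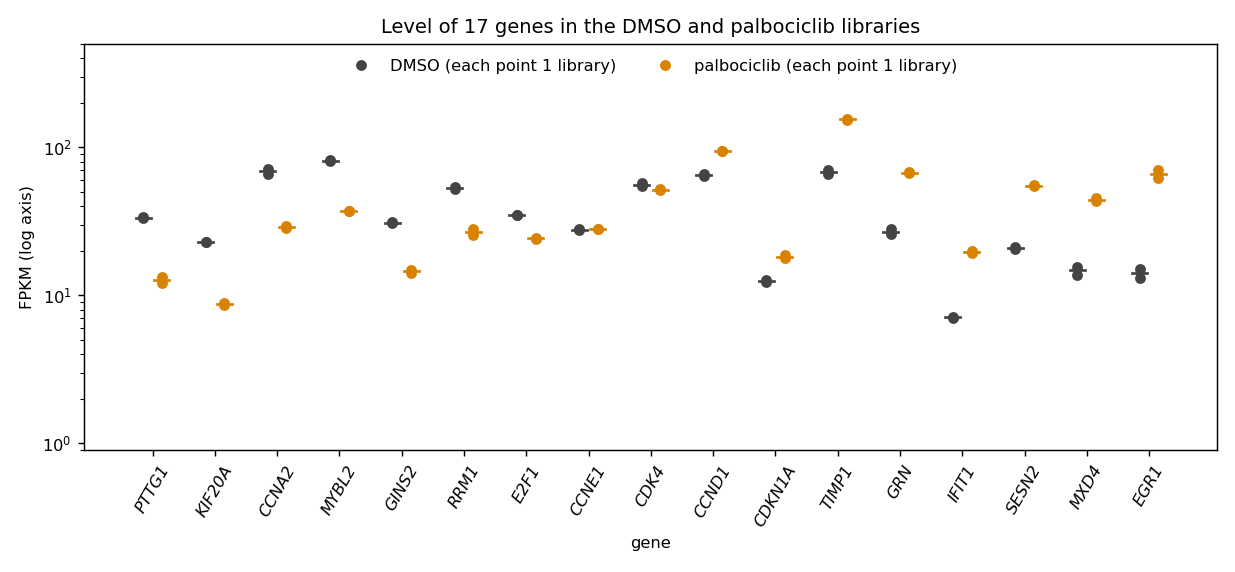
FPKM (log axis) of 17 genes in the DMSO and palbociclib libraries, with 1 point per library and a short line at the mean of each group. The points of a group lie close together, PTTG1 and KIF20A lie lower and EGR1 higher with palbociclib, and CCNE1 (28.0 and 27.5 against 28.0 and 27.9 FPKM) lies at the same height in both.

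At the entry to the cycle, transcripts of the drug's targets and their partners changed in both directions, with log2 fold changes of −0.56 to 0.52. Of 7 tested genes for D cyclins, CDK4 and pocket proteins, 3 rose and 2 fell, with a median log2 fold change of −0.11 (−0.05 over all tested genes). CCND1, which encodes cyclin D1, stood at 64.6 and 66.5 FPKM with DMSO and at 95.0 and 94.2 FPKM with palbociclib. The groups did not overlap, and its log2 fold change was 0.52 ± 0.04 (limma adjusted p = 7.18e-05). Cyclin D2 (CCND2) rose by less, from 91.4 and 97.6 to 112.8 and 109.1 FPKM (0.23 ± 0.04). The pocket protein genes went different ways: RBL1 (p107), itself an E2F target, fell from 5.28 and 5.81 to 3.50 and 3.34 FPKM (−0.56 ± 0.06), and RBL2 (p130), the pocket protein of resting cells, rose from 6.32 and 5.99 to 7.17 and 7.01 FPKM (0.18 ± 0.04). RB1 (−0.16 ± 0.06, limma adjusted p = 0.0719) and CDK4 (−0.11 ± 0.06, limma adjusted p = 0.157) did not pass, and CDK6, at 0.920 to 1.03 FPKM in these 4 libraries, was below the filter. The calls of RBL2 and of CCND3 (−0.20 ± 0.06) were lost when single libraries were left out, and 1 member fell when any of the 4 was left out.

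Among 5 tested CDK inhibitor genes, CDKN1A was the only one to pass. CDKN1A encodes p21, a p53 target that inhibits CDK2. Its level was 12.4 and 12.7 FPKM with DMSO and 18.7 and 17.8 FPKM with palbociclib (0.51 ± 0.06, limma adjusted p = 0.000716). CDKN1B (p27) had a log2 fold change of 0.03 ± 0.06, CDKN2A (p16 and ARF) of −0.02 ± 0.08, CDKN2D of 0.04 ± 0.07 and CDKN2C of −0.19 ± 0.07, the last with a limma adjusted p of 0.0587. CDKN1C and CDKN2B were below the filter.

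Most genes of the E2F family fell. Of 10 tested E2F and DP genes, 8 fell and 1 rose, with a median of −0.43. E2F1, an activator, stood at 34.9 and 35.0 FPKM with DMSO and at 24.2 and 24.5 FPKM with palbociclib (−0.50 ± 0.05). E2F2 fell from 11.2 and 11.9 to 5.63 and 5.53 FPKM (−0.93 ± 0.06), whereas E2F3, the third activator, did not pass (−0.04 ± 0.04, limma adjusted p = 0.495). The atypical repressors E2F7 (−0.81 ± 0.06) and E2F8 (−0.999 ± 0.06), which are expressed late in S phase, fell, as did E2F4 (−0.27 ± 0.05), E2F5 (−0.35 ± 0.06) and E2F6 (−0.26 ± 0.05, a call lost with TPM scaling). TFDP1, the main dimer partner, fell from 73.6 and 74.9 to 47.6 and 45.5 FPKM (−0.66 ± 0.04), and TFDP2 rose (0.19 ± 0.04).

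The kinase module of G1/S and S phase fell, except for cyclin E1. Of 12 tested genes of the cyclin E, cyclin A and CDK2 module, 11 fell, with a median of −0.61. CCNA2 (cyclin A2), the cyclin of S phase and G2, was at 66.3 and 71.6 FPKM with DMSO and at 29.3 and 28.4 FPKM with palbociclib, a 2.39-fold lower mean (−1.23 ± 0.04, limma adjusted p = 2.5e-05). CDC25A, the phosphatase that activates CDK2, fell from 34.8 and 36.9 to 18.0 and 17.04 FPKM (−0.99 ± 0.06). FBXO5, which encodes the APC/C inhibitor EMI1, fell by 0.92 ± 0.06, and SKP2, the F-box protein that targets p27, by 0.71 ± 0.03 on the log2 scale. CDK2 (−0.61 ± 0.06), CCNE2 (−0.64 ± 0.09) and the CDC7 kinase with its activator DBF4 (−0.58 ± 0.04 and −0.62 ± 0.04) also fell. CCNE1 did not pass, at 28.0 and 27.5 FPKM against 28.0 and 27.9 FPKM (0.01 ± 0.05, limma adjusted p = 0.891). The falls of CKS2 (−0.20 ± 0.05) and FZR1 (−0.19 ± 0.06) were not kept after TPM scaling, and CKS2 was at 0.03 with quantile normalisation.

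Replication genes fell nearly throughout. Of 47 tested genes for origin licensing and the replication fork, 44 fell and 0 rose, with a median of −0.54. GINS2 was the lowest, at 31.1 and 31.0 FPKM with DMSO and 14.9 and 14.2 FPKM with palbociclib (−1.04 ± 0.04, limma adjusted p = 2.8e-05). GMNN fell from 32.7 and 32.4 to 16.2 and 16.0 FPKM (−0.97 ± 0.03) and PRIM1 from 15.4 and 15.6 to 7.48 and 7.44 FPKM (−0.96 ± 0.06). PCNA, the sliding clamp, was at 197.0 and 202 FPKM with DMSO and at 115 and 113 FPKM with palbociclib (−0.80). Within the MCM helicase, MCM2, MCM3, MCM4, MCM6 and MCM7 had log2 fold changes of −0.54 to −0.64, and MCM5 had −0.23. The origin recognition complex was uneven: ORC1, its E2F-driven subunit, fell by 0.74 on the log2 scale, and ORC4 (−0.11) and ORC6 (−0.10) did not pass. POLD2, a subunit of DNA polymerase delta (−0.04), did not pass either.

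Deoxynucleotide synthesis genes fell as well. Of 12 tested genes, 10 fell, with a median of −0.59. RRM1 and RRM2, the subunits of ribonucleotide reductase in S phase, fell from 52.7 and 54.1 to 28.0 and 25.7 FPKM (−0.97 ± 0.05) and from 82.6 and 84.2 to 44.7 and 42.3 FPKM (−0.92 ± 0.04). Their levels in the groups were far apart compared with the spread within a group. TYMS, thymidylate synthase, fell by 0.95 ± 0.05 on the log2 scale. RRM2B, the p53-induced subunit of resting cells (0.09), and the dNTP hydrolase gene SAMHD1 (−0.13) did not pass.

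Chromatin assembly and DNA methylation genes also fell, 18 of 22 tested, with 2 higher and a median of −0.56. HMGB2, a high-mobility-group protein, fell from 108 and 112 to 53.4 and 50.9 FPKM (−1.06 ± 0.04). CHAF1B, a subunit of the CAF-1 histone chaperone, fell by 1.0002 ± 0.04 and UHRF1, which recruits DNMT1 to replicated DNA, by 0.88 ± 0.04 on the log2 scale. The methyltransferase genes went different ways. DNMT1, which copies methylation after replication, was at 53.3 and 53.3 FPKM with DMSO and at 35.1 and 34.8 FPKM with palbociclib (−0.59 ± 0.04), whereas DNMT3A, a de novo enzyme, rose (0.34) and DNMT3B, the other one, fell (−0.49). Of the Polycomb core, EZH2 (−0.70), EED (−0.67) and SUZ12 (−0.34) fell.

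Genes of MuvB and its activating partners fell, 5 of 6 tested, with a median of −0.31. MYBL2 (B-MYB) was at 80.5 and 82.2 FPKM with DMSO and at 37.1 and 37.1 FPKM with palbociclib (−1.11 ± 0.05, limma adjusted p = 3.76e-05). FOXM1 fell from 20.1 and 20.1 to 11.1 and 10.3 FPKM (−0.85 ± 0.04). The core subunits moved less: LIN52 fell by 0.44 ± 0.06 on the log2 scale, and the falls of LIN9 (−0.18 ± 0.05) and RBBP4 (−0.13 ± 0.03) were not kept after quantile or TPM scaling, nor without DMSO replicate 2 or palbociclib replicate 2, so 3 members fell in each of those fits. LIN54 (−0.09 ± 0.06) did not pass and LIN37 was below the filter.

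Mitotic genes had the lowest median of the 36 lists. All 47 tested genes of anaphase, the spindle and cytokinesis fell, with a median of −0.78 and a range of −1.33 to −0.28, and all 47 also fell in each fit with another scaling or with 1 library left out, where the lone library of a group was assumed to vary as the other groups did. PTTG1 was at 33.5 and 33.6 FPKM with DMSO and at 12.1 and 13.3 FPKM with palbociclib, a 2.63-fold lower mean and the lowest log2 fold change of any protein-coding gene that passed (−1.33 ± 0.05, limma adjusted p = 2.5e-05). KIF20A fell from 23.02 and 23.01 to 8.89 and 8.63 FPKM (−1.30 ± 0.04) and CDCA3 from 11.5 and 11.2 to 4.05 and 4.27 FPKM (−1.26 ± 0.05). In none of these did a palbociclib library reach a DMSO library. SPC25, a kinetochore subunit (−1.23 ± 0.07), BIRC5, survivin (−1.17 ± 0.05), and MKI67, the Ki-67 proliferation marker (−1.14 ± 0.05), followed. TOP2A, topoisomerase II alpha, fell from 91.1 and 95.9 to 48.9 and 47.4 FPKM (−0.94 ± 0.05), and CDC20, the APC/C activator, from 113 and 119 to 64.9 and 59.5 FPKM (−0.89 ± 0.06).

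Of 20 tested mitotic kinase, cyclin and phosphatase genes, 18 fell and 1 rose, with a median of −0.64. AURKB, the kinase of the chromosomal passenger complex, was at 52.7 and 54.5 FPKM with DMSO and at 23.8 and 25.5 FPKM with palbociclib (−1.09 ± 0.05). PLK1 fell from 43.4 and 43.0 to 22.9 and 21.4 FPKM (−0.93 ± 0.06), CCNB1 (cyclin B1) from 108 and 114 to 71.8 and 67.5 FPKM (−0.67 ± 0.04) and CDK1 from 49.0 and 51.7 to 36.4 and 34.2 FPKM (−0.50 ± 0.05). The phosphatases that activate CDK1 did not follow: CDC25B (−0.06) did not pass, and CDC25C was at 5.11 and 4.91 against 6.13 and 6.94 FPKM (0.32 ± 0.07, limma adjusted p = 0.0101), a rise that was lost without DMSO replicate 2 and without palbociclib replicate 2. Of 9 tested genes for tubulins and the microtubule destabiliser STMN1, 7 fell, among them TUBB (370 and 373 to 210.1 and 204 FPKM, −0.84 ± 0.03) and STMN1 (−1.03 ± 0.04), whereas TUBA1A rose (0.57).

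**Figure D2:**
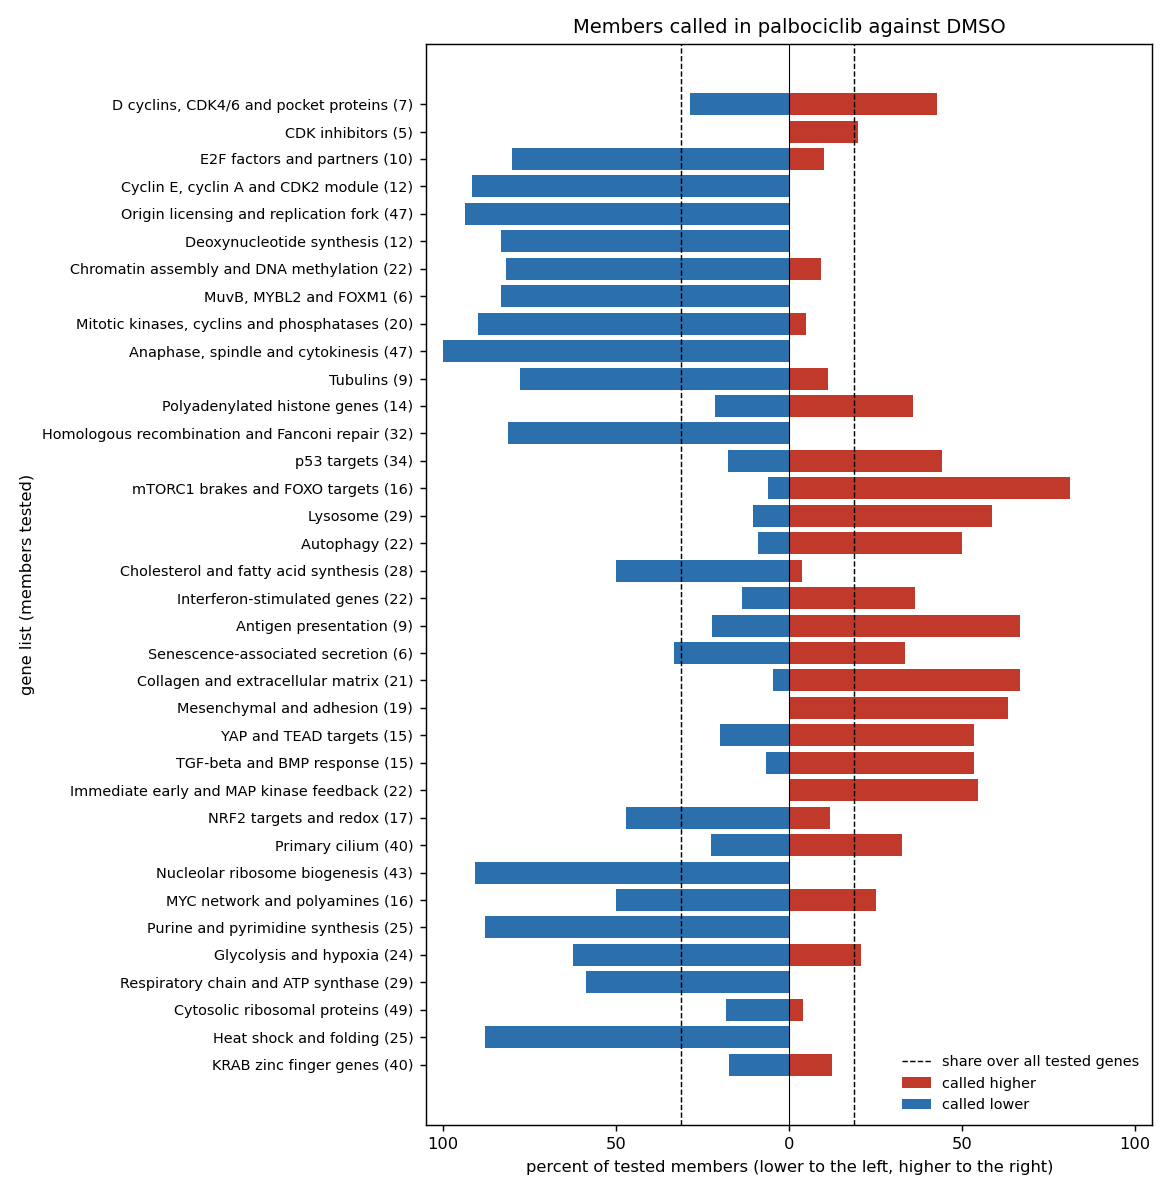
Percent of the tested members of each of 36 gene lists that fell (blue bars, to the left) or rose (red bars, to the right) with palbociclib against DMSO, with the number tested in brackets. Dashed lines mark the shares over all tested genes, 31.4% lower and 18.7% higher. Replication, mitosis, repair, nucleolar and folding lists reach far past the left line, and mTORC1 brake, lysosome, matrix and antigen presentation lists past the right line.

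Motif shares were set beside these groups as a description. A RefSeq promoter, here the 250 bases before to 50 after the start, was found for 8815 of the 12443 tested genes. Of these, 21.9% held an E2F form, 9.31% CHR and 37.5% CCAAT, counted on both strands. Over all 27305 promoters of the table the shares were 13.1%, 15.4% and 35.7%. Among the genes that fell, 27.5% held an E2F form and 11.9% CHR, and among those that rose 14.4% and 7.63% did. In the replication group an E2F form was found in 67.5% of 40 promoters and CHR in 0%. In the anaphase group 79.1% of 43 promoters held CHR, 74.4% CCAAT, 60.5% both and 37.2% an E2F form. Mitotic kinases held CHR in 50% of 14 promoters, between these groups, and an E2F form in 28.6%, below both. Homologous recombination and Fanconi genes were close to replication genes in E2F forms, found in 59.3% of 27. In the lysosome group an E2F form was found in 5% and CHR in 5% of 20 promoters. Other lists that fell held few E2F forms: 16.7% of 36 nucleolar, 17.4% of 23 folding and 20% of 10 cyclin E, cyclin A and CDK2 promoters. CCAAT was as frequent as in the anaphase group in cholesterol (77.3% of 22), polyadenylated histone (76.9% of 13) and antigen presentation promoters (75% of 8). Cholesterol promoters also held an E2F form in 40.9%. The reverse complement of CCAAT can overlap the E2F form TTGGCGC, and the E2F forms can overlap each other. No test was made of these shares, and the groups were defined by function, not by motif.

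**Figure D3:**
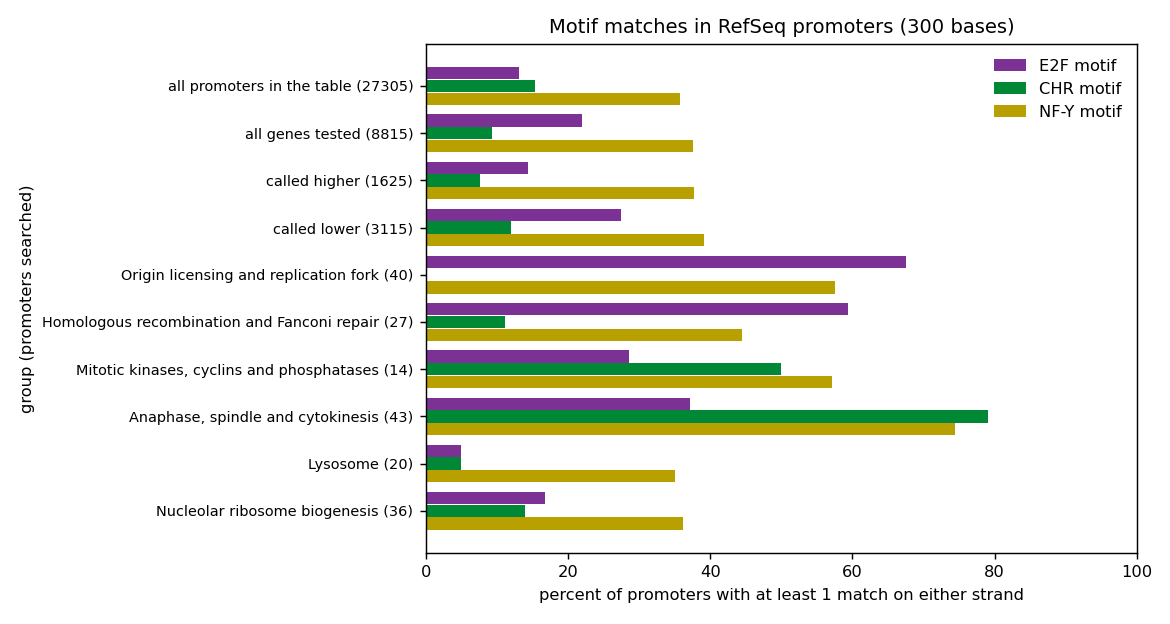
Percent of RefSeq promoters, from 250 bases before to 50 after the start, with at least 1 match to an E2F form, the CHR form or the NF-Y form CCAAT on either strand, with the number of promoters in brackets. Of the groups drawn, E2F matches are most frequent in the replication (67.5%) and homologous recombination (59.3%) groups and CHR matches in the anaphase group (79.1%).

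Homologous recombination and Fanconi genes, which repair broken and crosslinked DNA, fell in 26 of 32 tested cases with 0 higher and a median of −0.41. EXO1, the end-resection exonuclease, fell from 19.4 and 19.6 to 9.80 and 9.91 FPKM (−0.92 ± 0.04). UBE2T, the ubiquitin-conjugating enzyme of the Fanconi pathway (−0.77 ± 0.06), and FANCI (−0.75 ± 0.06) fell by about as much. BRCA1 (−0.49) and BRCA2 (−0.50) fell less, and PALB2 (−0.17), BRIP1 (−0.05) and MRE11 (−0.02) did not pass.

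Growth and biosynthesis genes fell as well. Of 43 nucleolar ribosome biogenesis genes, 39 fell and 0 rose, with a median of −0.44. NPM1, nucleophosmin, was at 766 and 778 FPKM with DMSO and at 508 and 489 FPKM with palbociclib (−0.63 ± 0.04). The RNA helicase gene DDX21 fell from 125 and 124 to 76.2 and 69.5 FPKM (−0.77 ± 0.06), and LYAR and UTP20 fell by 0.77 ± 0.05 and 0.71 ± 0.04 on the log2 scale. Cytosolic ribosomal protein genes behaved otherwise. Of 49, 2 rose (RPL3 and RPL12) and 9 fell, with a median of −0.04, and this split was not stable: 23 rose and 2 fell with quantile normalisation, 16 rose and 2 fell with TPM scaling, and 1 rose and 3 fell without DMSO replicate 1 or without DMSO replicate 2.

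Nucleotide and one-carbon synthesis fell in 22 of 25 tested genes, with a median of −0.34. MTHFD2, the mitochondrial one-carbon enzyme, fell from 25.4 and 25.8 to 16.8 and 15.1 FPKM (−0.65 ± 0.05) and PRPS2, which makes the ribose donor of nucleotides, by 0.66 ± 0.05 on the log2 scale. Folding genes fell in 22 of 25 cases with a median of −0.43. HSP90AB1 had the largest loss in level of any gene that passed, from 1390 and 1390 to 981 and 936 FPKM (−0.54 ± 0.04), and the chaperonin subunit gene CCT5 the largest fold change of this list (−0.79 ± 0.03). HSPB1 (0.16) did not pass, and 2 members of the list rose with quantile or TPM scaling.

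Glycolysis was mixed, with 15 of 24 tested genes lower and 5 higher (median −0.24). LDHA, lactate dehydrogenase A, was at 240 and 243 FPKM with DMSO and at 139 and 132 FPKM with palbociclib (−0.83 ± 0.04). The hexokinase gene HK2 (−0.72 ± 0.04) and the glucose transporter gene SLC2A1 (−0.71 ± 0.04) fell. Their relatives SLC2A3 (0.31) and HK1 (0.17, a call lost without DMSO replicate 2 or either of the palbociclib libraries) rose, as did the mitophagy receptor gene BNIP3L (0.41), whereas BNIP3 fell (−0.59 ± 0.04). Only 3 rose when DMSO replicate 2 or one of the palbociclib libraries was left out. Over all tested genes, 31.4% fell and 18.7% rose. With quantile normalisation 3136 of the 12443 tested genes fell, and with TPM scaling 2691. At 20 to 100 FPKM, 55.0% of genes fell. Respiratory chain genes fell in 17 of 29 cases (median −0.17), 9 with quantile normalisation and 11 with TPM scaling. Of 28 cholesterol and fatty acid synthesis genes, 14 fell and 1 rose (TM7SF2, a sterol reductase gene, 0.65 ± 0.06), and the number that fell was 7 with quantile normalisation, 8 with TPM scaling and 9 without DMSO replicate 1 or palbociclib replicate 2. INSIG1, a sterol-regulated gene, fell from 14.6 and 12.1 to 9.29 and 9.41 FPKM (−0.46 ± 0.08), and the sterol response factor gene SREBF2 (0.13) did not pass.

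In the MYC network, MXD4 had the largest rise, and the polyamine enzymes fell. MXD4 (chr4:2247432-2262294, minus strand, GRCh38), a MAX partner that opposes MYC, was at 13.8 and 15.7 FPKM with DMSO and at 43.1 and 45.6 FPKM with palbociclib, a 3.01-fold higher mean (1.53 ± 0.10, limma adjusted p = 6.51e-05). MXD1 rose from 1.22 and 1.44 to 2.38 and 2.24 FPKM (0.51 ± 0.08) and MXI1 by 0.41 ± 0.06, whereas MXD3, the family member of proliferating cells, fell (−0.37 ± 0.10), a call lost without DMSO replicate 2 or either of the palbociclib libraries. MYC itself rose, from 93.8 and 92.8 to 125 and 123 FPKM (0.41 ± 0.05). ODC1, ornithine decarboxylase, fell from 115 and 123 to 73.4 and 70.3 FPKM (−0.72 ± 0.04), AMD1 by 0.56 ± 0.05 and SMS by 0.52 ± 0.03 on the log2 scale. Of the 16 tested genes of this list, 4 rose and 8 fell.

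Immediate early genes, which answer growth factor signals within minutes, and feedback inhibitors of the MAP kinase pathway rose in 12 of 22 tested cases with 0 lower and a median of 0.21. EGR1 (chr5:138465490-138469315, plus strand, GRCh38), a zinc finger transcription factor, had the largest rise of any protein-coding gene, from 15.1 and 13.2 FPKM with DMSO to 70.4 and 62.4 FPKM with palbociclib (2.16 ± 0.14, limma adjusted p = 6.07e-05). FOS rose from 1.70 and 1.58 to 5.16 and 5.38 FPKM (1.25 ± 0.08), EGR3 by 0.82 ± 0.10 and KLF2, a factor also induced by flow in endothelium, by 0.84 ± 0.11. EGR3 was at 0.558 and 0.460 FPKM with DMSO, below the filter value, and at 1.69 and 1.62 FPKM with palbociclib. It passed the filter only through the libraries with palbociclib. The feedback genes SPRY4 (0.75), DUSP6 (0.67) and SPRY2 (0.48) rose too. Other immediate early genes did not: IER2 (−0.07), DUSP1 (−0.05) and IER3 (−0.04) did not pass.

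Brakes of mTORC1 and targets of FOXO factors, which are active when growth signalling is low, rose in 13 of 16 tested cases with 1 lower and a median of 0.42. SESN2 (chr1:28259527-28282491, plus strand, GRCh38), a leucine sensor that restrains mTORC1, was at 21.3 and 20.5 FPKM with DMSO and at 55.3 and 54.9 FPKM with palbociclib (1.36 ± 0.05, limma adjusted p = 2.61e-05). TXNIP, an inhibitor of glucose uptake, rose from 2.00 and 2.03 to 5.47 and 6.24 FPKM (1.18 ± 0.07), SESN3 by 0.98 ± 0.05 and CCNG2, a cyclin of quiescent cells, by 0.98 ± 0.05. PIK3IP1, an inhibitor of PI 3-kinase, rose from 0.800 and 0.979 to 2.55 and 2.88 FPKM (0.97 ± 0.12). FOXO4, which also rose, was at 0.625 and 0.609 FPKM with DMSO and at 1.19 and 1.47 FPKM with palbociclib. PIK3IP1 and FOXO4 were below the filter value with DMSO and passed it through other libraries. BNIP3 was the member that fell.

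Lysosome genes rose in 17 of 29 tested cases with 3 lower and a median of 0.24. GRN, progranulin, was at 25.8 and 28.1 FPKM with DMSO and at 67.8 and 66.9 FPKM with palbociclib (1.29 ± 0.07). The cathepsin gene CTSF rose from 4.64 and 4.55 to 10.2 and 9.78 FPKM (0.97 ± 0.05), and GAA, which digests glycogen, from 15.6 and 15.7 to 29.4 and 30.7 FPKM (0.90 ± 0.06). IDUA, the iduronidase of the lysosome and one of the 12 protein-coding genes with the largest rise, went from 1.77 and 2.01 to 6.66 and 6.77 FPKM (1.42 ± 0.10). Most proton pump and membrane genes of the list, such as ATP6V1H (−0.04), ATP6V0D1 (0.11) and LAMP2 (0.10), did not pass. Autophagy genes rose in 11 of 22 tested cases with 2 lower, led by WIPI1 (0.93 ± 0.08), GABARAPL1 and OPTN (0.69 each) and the initiating kinase gene ULK1 (0.60 ± 0.06), and 7 rose without palbociclib replicate 1. TFEB, the factor that drives both groups, did not pass (0.24 ± 0.11, limma adjusted p = 0.107), and its relative TFE3 rose (0.26 ± 0.06), a call lost without DMSO replicate 2 or palbociclib replicate 1.

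Beside 18.7% of all tested genes higher and 31.4% lower, targets of p53 went both ways. Of 34 tested, 15 rose and 6 fell, with a median of 0.15, and 8 rose without DMSO replicate 1. Besides SESN2 and CDKN1A, GDF15, a secreted stress factor, rose from 2.15 and 2.64 to 5.76 and 5.29 FPKM (0.94 ± 0.12), the antiproliferative gene BTG2 from 8.63 and 8.90 to 16.9 and 16.1 FPKM (0.84 ± 0.06) and BBC3, which encodes the apoptosis factor PUMA, from 5.36 and 5.40 to 9.76 and 9.63 FPKM (0.75 ± 0.11). AEN (−0.56), POLH (−0.45), TRIAP1 (−0.38), FBXO22 (−0.24), RPS27L (−0.21) and MDM2, the ubiquitin ligase of p53 (−0.24), fell, but the calls of RPS27L and MDM2 were lost with TPM scaling and when DMSO replicate 2 or palbociclib replicate 2 was left out, and that of MDM2 also without DMSO replicate 1. BAX (−0.08) and CCNG1 (−0.04) did not pass.

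Interferon-stimulated genes rose in 8 of 22 tested cases with 3 lower and a median of 0.14, and 16 more were below the filter. Over all tested genes, 18.7% rose and 31.4% fell. IFIT1, an RNA-binding antiviral factor, was at 7.14 and 7.07 FPKM with DMSO and at 19.3 and 19.9 FPKM with palbociclib (1.35 ± 0.04, limma adjusted p = 2.5e-05). IFI6 (0.80 ± 0.13), IFITM1 (0.70 ± 0.08) and STAT2 (0.68 ± 0.05) rose less, and ISG15 (−0.02) and IRF7 (0.05) did not pass. IFIT2, which also rose, was at 0.785 and 0.874 FPKM with DMSO and at 1.41 and 1.76 FPKM with palbociclib. Its DMSO level was below the filter value, so it passed the filter through other libraries. Antigen presentation genes rose in 6 of 9 cases: HLA-C from 44.7 and 44.8 to 69.3 and 68.9 FPKM (0.62 ± 0.05), HLA-E by 0.66 ± 0.07 and HLA-B by 0.59 ± 0.05, while B2M, their light chain, did not pass (−0.09) and CALR, the chaperone calreticulin, fell (−0.40 ± 0.05). Reads of the near-identical HLA genes may be split between copies.

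Matrix genes rose in 14 of 21 tested cases with 1 lower and a median of 0.49. COL6A1, a chain of collagen VI, rose from 7.46 and 7.71 to 14.2 and 14.4 FPKM (0.83 ± 0.06), and the laminin gene LAMB2 from 52.6 and 51.5 to 90.9 and 91.3 FPKM (0.80 ± 0.04). COL4A5 and COL6A2 rose by 0.74 each, and COL5A2 fell (−0.48). Of 19 tested mesenchymal and adhesion genes, 12 rose and 0 fell (median 0.26), among them S100A4, a calcium-binding protein, from 129 and 125 to 223 and 214 FPKM (0.78 ± 0.04), CALD1 (0.55 ± 0.06) and ITGAV (0.48 ± 0.04). S100A6 was at 0.0634 and 0.0697 FPKM with DMSO and at 2.77 and 0.969 FPKM with palbociclib, and did not pass (limma adjusted p = 0.0576). TIMP1, a metalloproteinase inhibitor in the senescence secretion list, rose from 70.7 and 65.9 to 156.7 and 153 FPKM (1.17 ± 0.04); of the other 5 tested genes of that list, 1 rose and 2 fell, each lost when single libraries were left out. Of the 27 genes of this list, 15 were below the filter, and IL6, CXCL1, CXCL2, CXCL3, CCL20 and CSF2 were not analysed here.

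Targets of YAP rose in 8 of 15 cases with 3 lower (1 with TPM scaling). CYR61 (CCN1), a secreted matricellular factor, was at 39.9 and 38.1 FPKM with DMSO and at 83.1 and 75.9 FPKM with palbociclib (1.01 ± 0.05), and CTGF (CCN2) rose from 2.10 and 1.94 to 4.42 and 3.61 FPKM (0.73 ± 0.16), a call lost without palbociclib replicate 1. WWTR1, which encodes TAZ, rose by 0.66 ± 0.06, YAP1 did not pass (0.05) and TEAD4 fell (−0.48 ± 0.07). TGF-beta and BMP response genes rose in 8 of 15 cases, but in 4 without DMSO replicate 1 and in 5 without palbociclib replicate 1; LTBP3 (0.63 ± 0.05) and ID2 (0.55 ± 0.10) kept their calls and SMAD6 fell (−0.34).

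Histone genes with polyadenylated transcripts rose in 5 of 14 tested cases and fell in 3. For this list and the next ones, the shares over all tested genes were 18.7% higher and 31.4% lower. HIST1H2BK rose from 26.8 and 22.4 to 53.2 and 56.3 FPKM (1.13 ± 0.08), HIST1H2BD by 0.91 ± 0.10 and HIST2H2BE by 0.60 ± 0.11, while the linker histone gene H1F0 fell from 93.3 and 85.1 to 52.1 and 51.0 FPKM (−0.78 ± 0.05). HIST2H2BE was at 0.572 and 0.734 FPKM with DMSO, below the filter value, and at 1.67 and 1.35 FPKM with palbociclib. HIST1H2AC, which also rose, was at 0.719 and 0.873 FPKM with DMSO and at 1.45 and 1.64 FPKM with palbociclib. Both genes were below the filter value with DMSO and passed it through other libraries. Of 17 redox genes, 8 fell and 2 rose (0 without DMSO replicate 2, and 5 with quantile or TPM scaling), with TXNRD1 (−0.66 ± 0.04) and GCLM (−0.65 ± 0.05) lowest and NQO1 (0.06) not passing. Of 40 tested cilium genes, 13 rose and 9 fell (5 fell without DMSO replicate 2 or palbociclib replicate 2), with IFT27 (0.61 ± 0.06), IFT140 (0.56 ± 0.07) and PKD2 (0.43 ± 0.04) highest and CEP290 (−0.42 ± 0.06) lowest. KRAB zinc finger genes were below the background in both directions, with 5 of 40 higher and 7 lower, and 2 to 3 higher when a DMSO or palbociclib library was left out. TRIM28, their corepressor, fell from 352 and 385 to 274 and 273 FPKM (−0.43 ± 0.07).

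Among the 12 protein-coding genes with the largest rises, several belonged to none of the lists. TSPYL2, of the nucleosome assembly protein family, was at 8.89 and 7.66 FPKM with DMSO and at 24.8 and 24.8 FPKM with palbociclib (1.48 ± 0.07). S100A3 rose from 2.22 and 2.30 to 8.59 and 7.62 FPKM (1.48 ± 0.13), ACBD7 from 4.17 and 4.84 to 13.8 and 14.1 FPKM (1.44 ± 0.08) and PBXIP1, a partner of PBX factors, from 3.58 and 3.47 to 10.4 and 10.9 FPKM (1.36 ± 0.04). MYO15B rose by 1.27 ± 0.09. GPR84, a fatty acid receptor, was at 0.346 and 0.381 FPKM with DMSO, below the filter value, and at 2.52 and 2.07 FPKM with palbociclib (1.27 ± 0.14). At the other end TMSB15A, a thymosin, fell from 22.2 and 26.7 to 9.71 and 9.25 FPKM (−1.28 ± 0.10). DDN fell by 1.20 ± 0.04, WDR76 by 1.14 ± 0.05 and PCLAF, a PCNA-associated factor, by 1.12 ± 0.04 on the log2 scale.

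Noncoding and abundant RNAs followed. MALAT1 was at 16.2 and 13.998 FPKM with DMSO and at 50.05 and 113.5 FPKM with palbociclib (2.25 ± 0.44, limma adjusted p = 0.0051). Both palbociclib libraries were above both DMSO libraries but they differed from each other by more than the DMSO libraries did. RF00100 likewise was at 1.12 and 2.05 FPKM with DMSO and at 23.9 and 7.67 FPKM with palbociclib (2.53 ± 0.52), and was named after its value was seen. AC009229.3 and AC009229.1 (1.35 each) and AL365181.3 (1.30 ± 0.10) rose, and AC011247.2, DCST1-AS1, AC026979.2 and AL121658.1 fell by 1.03, 0.98, 0.89 and 0.85 on the log2 scale. Because it is not given whether counting used strand, reads of antisense and overlapping genes cannot be told apart. Among the genes with a symbol that passed, the largest rises in level were of the mitochondrial ribosomal RNA genes: MT-RNR2 was at 3427 and 3651 FPKM with DMSO and at 5567 and 5502 FPKM with palbociclib (0.65 ± 0.05). MT-RNR1 was at 558 and 595 against 794 and 1315 FPKM (0.82 ± 0.21), a call lost without either DMSO library. The elongation factor genes EEF1A1 (0.19 ± 0.04) and EEF2 (0.23 ± 0.06) and RPL13A (0.26 ± 0.06) rose, each call lost without DMSO replicate 1. Among the genes that passed, the largest losses in level after HSP90AB1 were of ACTB (988 and 1007 to 702 and 663 FPKM), NPM1, ENO1, HSPA8 and YBX1.

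The share of genes that rose or fell differed with the level of expression. Of 5026 genes with a mean FPKM of 1 to 5, 19.9% rose and 13.3% fell, and of 2201 genes at 20 to 100 FPKM, 14.4% rose and 55.0% fell. The median log2 fold change of the latter was −0.18 as deposited, −0.08 with TPM scaling and −0.01 with quantile normalisation. Protein-coding genes rose in 18.8% and fell in 36.1% of 10175 cases, whereas long intergenic noncoding genes rose in 21.9% and fell in 8.11% of 370. Chromosome 19 had the lowest share of protein-coding genes that fell (24.6%) and the highest share that rose (24.2%), and its median log2 fold change was 0.00 against −0.07 over all protein-coding genes. Genes at the edge of the filter show what it left out: AC087741.2 and AP000894.4 had a mean of 1.00 FPKM just inside, and AC018638.1 and AC133919.2 a mean of 0.9996 and 0.9994 FPKM just outside.

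**Figure D4:**
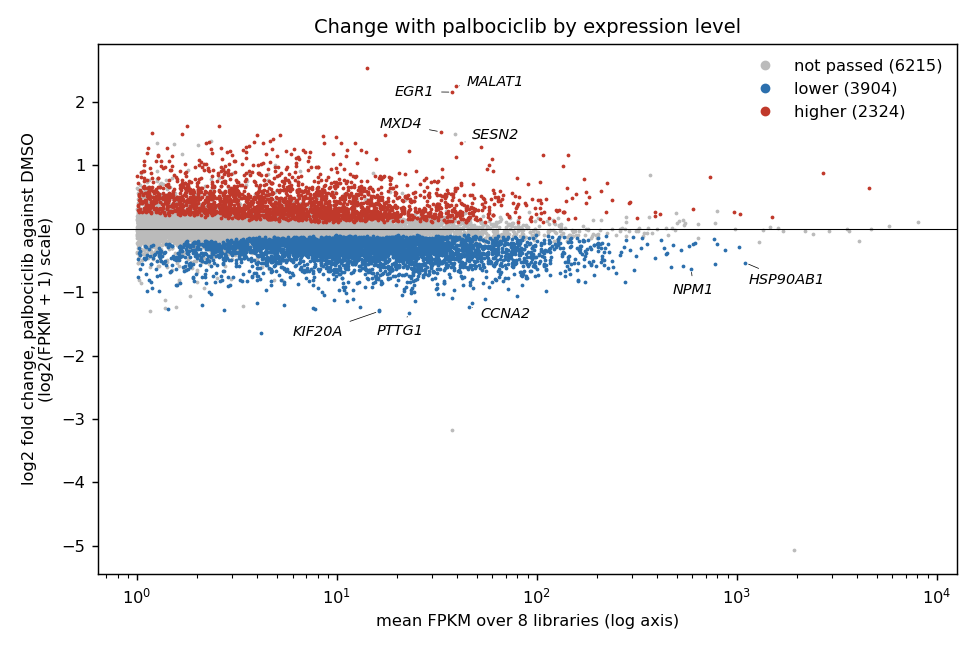
Log2 fold change of palbociclib against DMSO (log2(FPKM + 1) scale) against the mean FPKM over 8 libraries (log axis), 1 point per tested gene, with 2324 higher, 3904 lower and 6215 not passed. Blue points fill the middle of the level range, and the named genes are labelled.

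The same drug was also given to cells treated with olaparib, and the group means of the combination against olaparib use none of the 4 libraries above. Both contrasts came from 1 fit of all 8 libraries, so they share the filter and the estimated spread of each gene. Their calls are therefore not fully independent. In the combination against olaparib, 2110 genes rose (17%) and 3412 fell (27.4%). Of the genes that rose against DMSO, 1624 rose here too (69.9% of the first list and 77.0% of the second), and of those that fell, 2906 fell here (74.4% and 85.2%). The direction was shared by 2231 of the 2324 and 3810 of the 3904. Across genes the log2 fold changes had Pearson r = 0.778 and Spearman rho = 0.819, a description over genes that are not independent. Cell cycle groups moved alike: 43 of 47 replication genes, 47 of 47 anaphase genes and 19 of 20 mitotic kinase genes fell, CCNA2 with −1.21 ± 0.04 and GINS2 with −0.995 ± 0.04. EGR1 rose by 2.11 ± 0.14, MXD4 by 1.002 ± 0.10 and CCND1 by 0.46 ± 0.04.

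Of the 34 p53 targets, 4 rose and 15 fell in olaparib-treated cells. CDKN1A was at 30.5 and 31.7 FPKM with olaparib and at 24.5 and 28.1 FPKM with the combination (−0.23 ± 0.06, limma adjusted p = 0.0224), so palbociclib was followed by a higher level without olaparib and a lower one with it. Opposite calls occurred in 16 genes that rose and 6 that fell against DMSO. The 16, looked up after their values were seen, include CDKN1A, DDIT4 and FDXR, the rise of FDXR against DMSO being lost without DMSO replicate 1 or palbociclib replicate 1. The difference itself was tested as an interaction: it was −0.74 ± 0.09 for CDKN1A and did not pass (limma adjusted p = 0.159), and over all genes only 1 passed (0.00804%), with 1315 at an unadjusted p under 0.05. SESN2 rose in both settings, by 1.36 without and 0.88 ± 0.05 with olaparib (interaction limma adjusted p = 0.257).

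**Figure D5:**
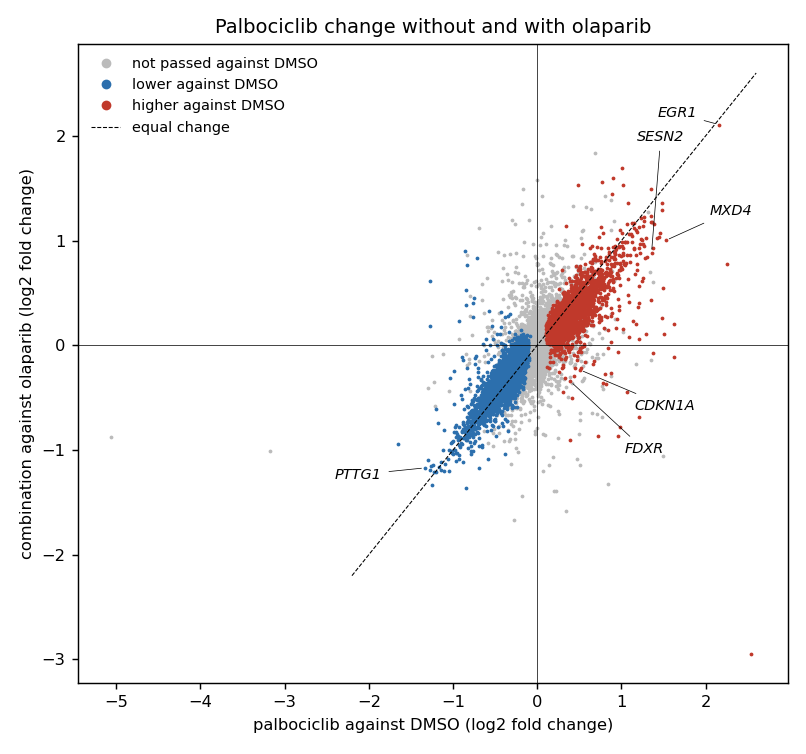
Log2 fold change of the combination against olaparib (vertical) against that of palbociclib against DMSO (horizontal), 1 point per tested gene, coloured by the call against DMSO, with a dashed line where the changes are equal. Most coloured points follow the line (Pearson r = 0.778 across all genes), and CDKN1A and FDXR lie to the right of 0 and below it.

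Set directly against olaparib alone, palbociclib gave higher levels of 1755 genes (14.1%) and lower levels of 2551 (20.5%), 34.6% in all. All 47 anaphase genes and 39 of 47 replication genes were lower, and 25 of 34 p53 targets were lower with 2 higher. PTTG1 was at 31.3 and 32.4 FPKM with olaparib, a log2 difference of −1.26 ± 0.05 for palbociclib minus olaparib, and EGR1 at 11.2 and 14.3 FPKM (2.30 ± 0.14). CDKN1A was lower with palbociclib by 0.74 ± 0.06 on the log2 scale and FDXR, a mitochondrial reductase, by 0.95 ± 0.09. These contrasts share the palbociclib libraries with the comparison against DMSO, and the total of 4306 genes was 2674 without palbociclib replicate 1 and 2465 without palbociclib replicate 2.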

How the data were processed

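Libraries were made from polyA RNA, per the labels. The submitters' processing notes name HTSeq 0.6.0, STAR 2.5.1b and CASAVA 1.8, with GRCh38 and hg38 as builds, and give no roles. The authors deposited FPKM values for 31721 genes in 8 columns. The use of strand in counting is not given in the sources. GENCODE v29 (GRCh38) supplied symbols, positions and exon lengths. With these lengths 28635 genes (90.3%) gave whole reads in every library within 0.01 reads. A length was searched for the other 3086, so these are no independent check. The recovered reads served for depth, for the size factors and for a voom alternative only.

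Values were tested as log2(FPKM + 1), a pseudocount of 1, with limma 3.58.1 in R 4.3.3: 1 mean per group, a trend on expression, all 8 libraries in 1 fit, 4 residual degrees of freedom, and genes with a mean of at least 1 FPKM. Tests were two-sided, adjusted over the 12443 genes. The fit was tested on simulated data. An exact permutation test of 2 against 2 libraries cannot reach the threshold of 0.05.

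Named genes are the 12 highest and 12 lowest protein-coding and 4 highest and 4 lowest long noncoding genes that passed, the 6 largest rises and falls in mean FPKM, up to 4 passing members per list, and all tested members of the 5 lists on G1 control, CDK inhibitors, E2F, CDK2 and MuvB. Other members of the lists are given as examples. Members, lists and tests were chosen with earlier results of these data known. Alternatives were another pseudocount, filter or scaling, a replicate block, a fit of only the groups compared, voom and leaving out each library.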

Additional observations from a re-analysis of the deposited data

Results flagged for a closer look

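The palbociclib effect differed with olaparib for 1 gene in the interaction test. ENSG00000274519, for which no symbol was found, was at 5.04 and 4.44 FPKM with DMSO and at 12.7 and 11.8 FPKM with palbociclib, but at 7.01 and 8.62 FPKM with olaparib and at 4.49 and 4.41 FPKM with the combination. The difference of the 2 effects was −1.90 ± 0.13 on the log2 scale (limma adjusted p = 0.0221). No other gene passed this test, with 1315 at an unadjusted p under 0.05, and voom on the recovered reads called 51.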

How the results depend on the processing

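Genes that rose against DMSO numbered 2324, and 1411 with a filter at a mean of 5 FPKM, which tests fewer genes. In olaparib-treated cells they numbered 2110, and 1234 with that filter. Leaving out a library leaves its group with 1 sample, which is then assumed to vary like the other groups. Leaving out each library in turn gave 1629 to 2365 genes that rose and 2814 to 3981 that fell against DMSO, with 1327 and 2583 of the original calls kept in every such fit. In olaparib-treated cells it gave 1533 to 1955 and 2513 to 3237, and for palbociclib against olaparib 2465 to 4463 (4306 with all libraries). The number of genes whose effect differed with olaparib was 1, and it was 33 without a filter, 6 with the filter at 5 FPKM, 0 with a replicate block, 51 with voom and 0 to 2 with libraries left out, and the cause was not tested. With quantile normalisation CKS2 and RBBP4 turned from lower to 0.0272 and 0.0161 (limma adjusted p = 0.701 and 0.707).

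Same-numbered libraries of DMSO and palbociclib did not deviate together (r = −0.0125 across genes). The labels do not say whether the numbers pair the samples, and this value cannot settle it. The fit with a replicate block gave 2374 higher and 4020 lower genes against DMSO and 2142 and 3554 in olaparib-treated cells. A pseudocount of 0.1 changed no call of the 194 named genes. The 2 libraries per group and depths of 20566089 to 34056976 reads limit what can be seen for weakly expressed genes.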

Other observations

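Some RNAs without a symbol varied between libraries of 1 group. ENSG00000277105 was at 4820 and 4542 FPKM with DMSO, at 87.1 and 221 FPKM with palbociclib, at 3878 and 112 FPKM with olaparib and at 72.9 and 1765 FPKM with the combination, and did not pass against DMSO (limma adjusted p = 0.058). ENSG00000274735 was at 81.3 and 96.8 FPKM with DMSO, at 8.95 and 8.96 FPKM with palbociclib, at 67.2 and 6.26 FPKM with olaparib and at 3.26 and 27.5 FPKM with the combination. ENSG00000274735 did not pass against DMSO either. Both were picked after their values were seen.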
